A study of Mus musculus with 2 samples.

Results

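Regulatory T cells are recognised by a small set of transcripts, and 8 of the 32285 genes in the count tables were chosen by name for that identity: Foxp3, Ikzf2, Il2ra, Il2rb, Izumo1r, Klrg1, Itgb8 and Ccr8. All 8 were found in both tables. The rule used names and no measured value, but the genes were picked with earlier results of these data known. The libraries were 10x droplet libraries of immune cells taken from MC38 tumours, a transplantable mouse colon adenocarcinoma line, on day 14 after inoculation. One library came from Ifnar1-SA mice and 1 from wild-type (WT) mice. The protein of Ifnar1 is one subunit of the receptor for type I interferons. The labels do not spell out what the SA allele changes, and they name no treatment, no sort, no age and no number of animals. They give the source as tumour-infiltrating immune cells but the cell type as CD8 T cells, and the counts held both T cells and macrophages. With 1 library per genotype there is no replicate spread, so no test was made and every interval below is a 95% interval for counting error alone.

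Regulatory T cells restrain other lymphocytes and keep self-tolerance, and in tumours they limit the response of effector T cells. Foxp3, the lineage transcription factor, and Ikzf2 (Helios), a zinc finger factor, set and hold the program. Il2ra (CD25) and Il2rb (CD122) encode chains of the interleukin-2 receptor, which signals through STAT5 and on which these cells depend. Izumo1r encodes folate receptor 4 and Klrg1 a lectin-like inhibitory receptor of differentiated cells. Itgb8 encodes the beta 8 integrin chain, which pairs with the alpha v chain to activate latent TGF-beta. Ccr8 encodes the receptor for the chemokine CCL1 and is known as a mark of regulatory T cells in tumours.

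In the GENCODE M21 annotation of GRCm38 the 8 genes are protein coding and lie on 7 chromosomes. Foxp3 spans chrX:7573644-7595245 and Il2ra chr2:11642807-11693193, both on the plus strand. Ccr8 spans chr9:120092114-120094906 on the plus strand. Il2rb spans chr15:78479256-78495271, Ikzf2 chr1:69531214-69687245, Izumo1r chr9:14885814-14903949, Klrg1 chr6:122270596-122282882 and Itgb8 chr12:119158022-119238802, all on the minus strand. RefSeq windows of the 250 bases before a transcription start (GRCm38.p6) were at hand for 5 members, in 6 windows. The 3 shown belong to the lineage factor, to Il2ra, whose transcript was higher in the Foxp3-positive gate than in both gates it is set against below, and to Ccr8, whose transcript could not be told apart between the Foxp3-positive and Foxp3-negative Cd4-positive gates. They are Il2ra at chr2:11642542-11642791, the second Foxp3 start at chrX:7580233-7580482, and Ccr8 at chr9:120091883-120092132, each on the plus strand, 5′ to 3′, with a STAT core (TTCNNNGAA) in capitals.
Il2ra: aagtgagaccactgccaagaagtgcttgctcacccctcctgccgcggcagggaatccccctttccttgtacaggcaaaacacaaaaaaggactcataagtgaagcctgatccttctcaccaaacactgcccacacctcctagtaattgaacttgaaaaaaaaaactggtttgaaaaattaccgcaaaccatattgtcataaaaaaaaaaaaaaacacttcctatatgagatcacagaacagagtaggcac
Foxp3: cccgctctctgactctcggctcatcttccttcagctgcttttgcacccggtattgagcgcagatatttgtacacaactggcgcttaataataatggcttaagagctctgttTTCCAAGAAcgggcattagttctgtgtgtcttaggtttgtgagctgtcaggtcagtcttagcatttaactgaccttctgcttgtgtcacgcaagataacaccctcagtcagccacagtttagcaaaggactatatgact
Ccr8: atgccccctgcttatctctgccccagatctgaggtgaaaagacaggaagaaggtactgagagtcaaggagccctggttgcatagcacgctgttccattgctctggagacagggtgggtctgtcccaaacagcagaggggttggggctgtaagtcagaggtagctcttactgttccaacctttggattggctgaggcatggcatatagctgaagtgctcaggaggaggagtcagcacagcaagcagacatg
The STAT core was searched on both strands and was in 1 of the 6 member windows, that of the second Foxp3 start. It was in 7.02% of all 32851 RefSeq windows of this length. The other Foxp3 window, at chrX:7579426-7579675, held none of the motifs searched. A forkhead core (TGTTTAC) was in 0 of the 6 and in 3.17% of all windows. A Runx core (TGTGGT) was in 1 of the 6, that of Izumo1r, and in 14.0% of all. A match describes letters in a window and shows no binding.

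Cells were kept with at least 1000 unique molecular identifiers (UMIs, tags that mark single captured transcripts), 500 genes and at most 10% mitochondrial UMIs, which left 5001 Ifnar1-SA and 4058 WT cells. Of these, 1691 Ifnar1-SA and 1774 WT cells carried at least 3 UMIs of Cd3d, Cd3e, Cd3g and Trac and fewer than 10 of 5 macrophage genes. The median depth of these T gate cells was 4436 UMIs in Ifnar1-SA and 5171 UMIs in WT. The Foxp3-positive gate needed 1 Foxp3 UMI and fewer than 2 Cd8a and Cd8b1 UMIs, and held 477 Ifnar1-SA and 340 WT cells. Its comparison gates were Foxp3-negative Cd4-positive cells, 231 in Ifnar1-SA and 220 in WT, and CD8 cells with at least 2 Cd8a and Cd8b1 UMIs, 673 in Ifnar1-SA and 993 in WT. The other T gate cells, 285 in Ifnar1-SA and 198 in WT, had neither Foxp3, Cd4 nor the 2 CD8 UMIs, and 25 Ifnar1-SA and 23 WT cells with both Foxp3 and CD8 UMIs were counted apart. The 2 libraries shared 7 cell barcodes, against 2.99 by chance. Macrophage-type droplets, 1692 in Ifnar1-SA and 1306 in WT, served as cells that should lack these transcripts. They were chosen to hold no UMI of Cd3d, Cd3e, Cd3g and Trac, so their level can understate what free T cell RNA leaves in a cell.

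The Foxp3-positive gate answered to its name by genes that the gate did not use. Ctla4, a checkpoint receptor, was at 1722 CPM (UMIs of a gene per 1000000 UMIs of the gate) in Foxp3-positive cells against 854 CPM in Foxp3-negative Cd4-positive cells of Ifnar1-SA, and at 1582 against 811 CPM in WT. A Cd4 UMI was present in 54.5% of the Foxp3-positive cells of Ifnar1-SA and in 55.9% of those of WT. Some markers of other cell types were near 0 there: 4 gamma-delta T cell genes summed to 0 UMIs in Ifnar1-SA and 1 UMI in WT. Ncr1, Klrb1c and Eomes of the natural killer list were at 0 in both. The 3 fibroblast genes were not near 0, at 42.4 CPM in Ifnar1-SA and 160 CPM in WT. Macrophage-type droplets held 140 and 114 CPM of them, and CD8 cells 59.4 and 64.9 CPM. The 4 B cell genes summed to 9.49 and 12.5 CPM, against 2.08 and 1.78 CPM in CD8 cells. The 4 dendritic cell genes summed to 13.3 and 4.99 CPM, against 6.68 and 11.3 CPM in macrophage-type droplets. The 6 macrophage genes summed to 374 CPM in Ifnar1-SA and 265 CPM in WT in this gate, to 650 and 427 CPM in Foxp3-negative Cd4-positive cells, and to 44709 and 49571 CPM in macrophage-type droplets. Their part in the results below was not tested.

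Foxp3-positive cells made up 28.2% of T gate cells in Ifnar1-SA (26.1 to 30.4%) and 19.2% in WT (17.4 to 21.1%), a difference of 9.04 percentage points. CD8 cells ran the other way, at 39.8% in Ifnar1-SA and 56.0% in WT, so that there were 0.709 Foxp3-positive cells per CD8 cell in Ifnar1-SA and 0.342 in WT. The Ifnar1-SA library held a second kind of cell that the WT library nearly lacked: 196 of its T gate cells carried Y-linked UMIs and no Xist, against 1 WT cell. Among these Y-linked cells the Foxp3-positive share was 11.2% (7.17 to 16.5%), below the WT share, while among cells with Xist only it was 33.4% (30.8 to 36.0%) in Ifnar1-SA and 19.5% (17.6 to 21.4%) in WT. The CD8 share was 67.3% in the Y-linked Ifnar1-SA cells, 34.6% in the Xist-only Ifnar1-SA cells and 56.3% in the Xist-only WT cells. The share therefore differed more between 2 parts of 1 library than between the genotypes, and genotype and animal cannot be told apart here. A sort or gate before loading, which the labels do not describe, could also set these shares.

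The share of cells that counted as Foxp3-positive rose with their depth. Among T gate cells without CD8, a Foxp3 UMI was found in 28.3% of Ifnar1-SA and 20.7% of WT cells with 1000 to 2500 UMIs. The share was 40.5% and 41.9% from 2500 to 5000 UMIs, and 64.2% in Ifnar1-SA and 52.6% in WT from 5000 to 10000. It reached 79.1% in Ifnar1-SA and 77.5% in WT above that. A cell with no Foxp3 UMI is therefore not shown to lack the transcript. Whether deeper cells also held more regulatory T cells was not tested. The median depth was 5185 UMIs in Ifnar1-SA and 5503 in WT for Foxp3-positive cells, and 3927 in Ifnar1-SA and 4349.5 in WT for Foxp3-negative Cd4-positive cells.

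**Figure D1:**
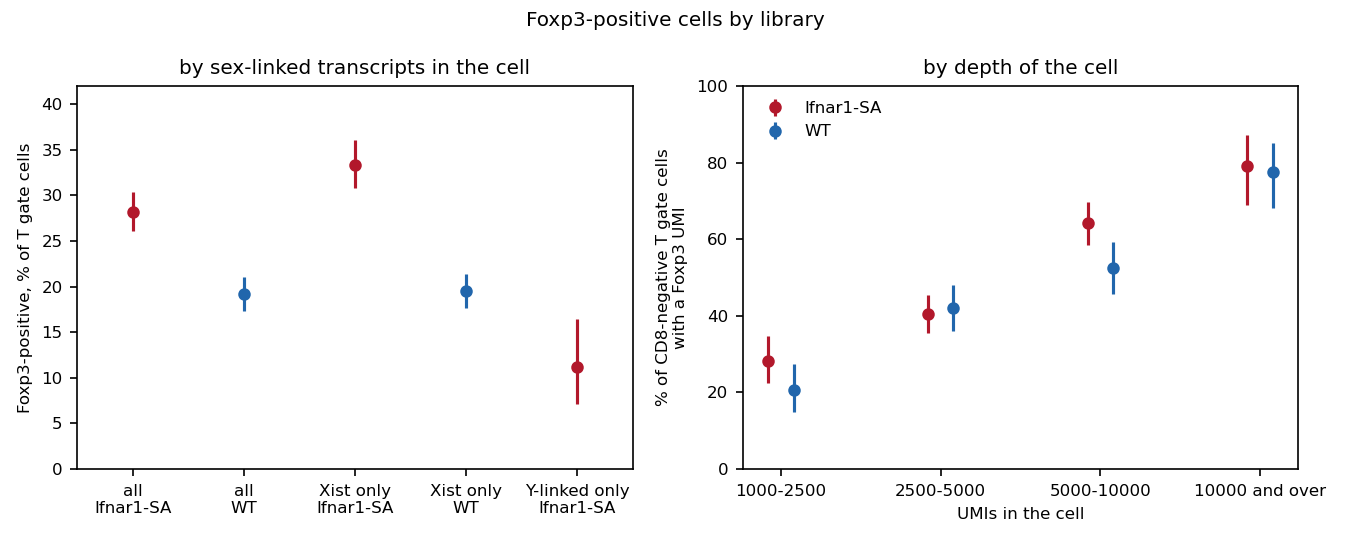
Share of Foxp3-positive cells by library. The left panel gives the percentage of T gate cells, for all cells and by sex-linked transcripts, and the right panel the percentage of CD8-negative T gate cells with a Foxp3 UMI in 4 bins of UMIs per cell; points are shares, lines exact 95% binomial intervals. The Y-linked Ifnar1-SA cells sit at 11.2%, below both WT points, and the share with a Foxp3 UMI climbs with depth in both libraries.

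Of the 2 transcription factors, only Ikzf2 can be compared between the gates, since the gates themselves require Foxp3 to be present or absent. The level of Foxp3 in its own gate was 366 CPM in Ifnar1-SA (1156 UMIs) and 285 CPM in WT (799 UMIs). The median was 2 UMIs per cell in both. Macrophage-type droplets held 0.645 CPM of Foxp3 in Ifnar1-SA and 0.264 CPM in WT. Ikzf2 was at 2114 CPM in Foxp3-positive cells, 1229.9 CPM in Foxp3-negative Cd4-positive cells and 128 CPM in CD8 cells of Ifnar1-SA. In WT the same gates held 1798, 1048 and 246 CPM of Ikzf2. An Ikzf2 UMI was present in 99.2% of Foxp3-positive Ifnar1-SA cells and in 98.8% of Foxp3-positive WT cells, so that 4 cells of each library lacked one. The log2 ratio of Foxp3-positive over Foxp3-negative Cd4-positive cells was 0.78 in both libraries (0.70 to 0.87 in Ifnar1-SA, 0.69 to 0.87 in WT). Over CD8 cells it was 4.05 in Ifnar1-SA (3.92 to 4.18) and 2.87 in WT (2.79 to 2.94).

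The 2 interleukin-2 receptor chains behaved differently. Il2ra was at 576 CPM in Foxp3-positive, 319 CPM in Foxp3-negative Cd4-positive and 67.7 CPM in CD8 cells of Ifnar1-SA, and at 606, 320.5 and 48.5 CPM in WT. Its log2 ratio over Foxp3-negative Cd4-positive cells was 0.85 in Ifnar1-SA (0.68 to 1.02) and 0.92 in WT (0.76 to 1.09), and over CD8 cells 3.09 in Ifnar1-SA and 3.64 in WT. Il2rb, which T cells of many kinds carry, did not mark the gate. It was at 278, 280.0 and 332 CPM across the same gates of Ifnar1-SA and at 283, 266 and 393 CPM in WT. Its log2 ratio over Foxp3-negative Cd4-positive cells was -0.01 in Ifnar1-SA (-0.20 to 0.18) and 0.09 in WT (-0.10 to 0.29). Over CD8 cells it was -0.26 in Ifnar1-SA (-0.38 to -0.13) and -0.47 in WT (-0.59 to -0.36). This order depended on the cells used. Without cells that had a UMI of Mki67 or Top2a the Ifnar1-SA ratio was 0.07. With cells thinned to 2000 UMIs the WT ratio was -0.07.

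Izumo1r and Klrg1, surface receptors like the 2 above, were low in CD8 cells. Izumo1r was at 187 CPM in Foxp3-positive, 101 CPM in Foxp3-negative Cd4-positive and 5.31 CPM in CD8 cells of Ifnar1-SA, and at 206, 107 and 6.75 CPM in WT. Klrg1 was at 299, 191 and 5.54 CPM in these gates of Ifnar1-SA and at 318, 124 and 7.25 CPM in WT. CD8 cells carry Klrg1 in many other settings, but at equal depth a Klrg1 UMI was found in 0.492% of Ifnar1-SA and 1.98% of WT CD8 cells. The matching share was 40% in Ifnar1-SA and 41.1% in WT for Foxp3-positive cells. Before thinning it was 2.67% and 3.32% for CD8 cells and 56.6% and 61.2% for Foxp3-positive cells. The log2 ratio of Foxp3-positive over Foxp3-negative Cd4-positive cells was 0.89 in Ifnar1-SA (0.60 to 1.21) and 0.94 in WT (0.66 to 1.23) for Izumo1r. For Klrg1 it was 0.65 in Ifnar1-SA (0.43 to 0.88) and 1.35 in WT (1.10 to 1.62). In Foxp3-negative Cd4-positive cells the 5 highest cells held 34.0% of the Klrg1 UMIs in Ifnar1-SA and 31.7% in WT, and without the 5 highest cells of each gate the ratios were 1.09 and 1.72.

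Itgb8 was at 134 CPM in Foxp3-positive, 109 CPM in Foxp3-negative Cd4-positive and 1.62 CPM in CD8 cells of Ifnar1-SA, and at 106, 68.5 and 2.29 CPM in WT. Its log2 ratio over CD8 cells was 6.37 in Ifnar1-SA (5.32 to 7.70) and 5.54 in WT (4.85 to 6.31), from 7 and 18 UMIs in the CD8 gates. Over Foxp3-negative Cd4-positive cells it was 0.30 in Ifnar1-SA (-0.00 to 0.61) and 0.63 in WT (0.27 to 1.01). Itgav, its alpha v partner, was at 427 against 320 CPM in Ifnar1-SA and 368 against 289 CPM in WT, Foxp3-positive against Foxp3-negative Cd4-positive cells. Lrrc32 (GARP), which holds latent TGF-beta at the cell surface, was at 76.2 against 34.8 CPM in Ifnar1-SA and 52.8 against 27.4 CPM in WT. The receptor gene Tgfbr2 was lower in Foxp3-positive cells, at 37.0 against 88.3 CPM in Ifnar1-SA and 34.2 against 95.1 CPM in WT.

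Ccr8 was sparse. Foxp3-positive cells held 61 UMIs (19.3 CPM) in Ifnar1-SA and 53 UMIs (18.9 CPM) in WT, and Foxp3-negative Cd4-positive cells held 17.9 CPM in Ifnar1-SA and 21.4 CPM in WT. The log2 ratio between those gates was 0.11 in Ifnar1-SA (-0.65 to 0.94) and -0.18 in WT (-0.89 to 0.57), so that a difference was not detectable at this depth. CD8 cells held 7.16 CPM in Ifnar1-SA and 3.95 CPM in WT, and the ratio over them was 1.43 (0.78 to 2.10) and 2.26 (1.59 to 2.95). Ccl1, the gene of its ligand, lay almost wholly outside the gate. Foxp3-positive cells held 1 Ccl1 UMI in Ifnar1-SA and 8 in WT, against 665 and 1885 UMIs in Foxp3-negative Cd4-positive cells and 2556 and 2334 UMIs in CD8 cells. In CPM this was 0.316, 625 and 590.4 in Ifnar1-SA and 2.85, 1615 and 297 in WT. Few cells carried it: 29 of the 231 Foxp3-negative Cd4-positive cells of Ifnar1-SA and 44 of the 220 of WT had a Ccl1 UMI, and the 5 highest cells held 69.0% and 61.2% of those UMIs. Ccl8, another ligand of the receptor in mice, was mainly in macrophage-type droplets, at 1018 CPM in Ifnar1-SA and 1754 CPM in WT.

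**Figure D2:**
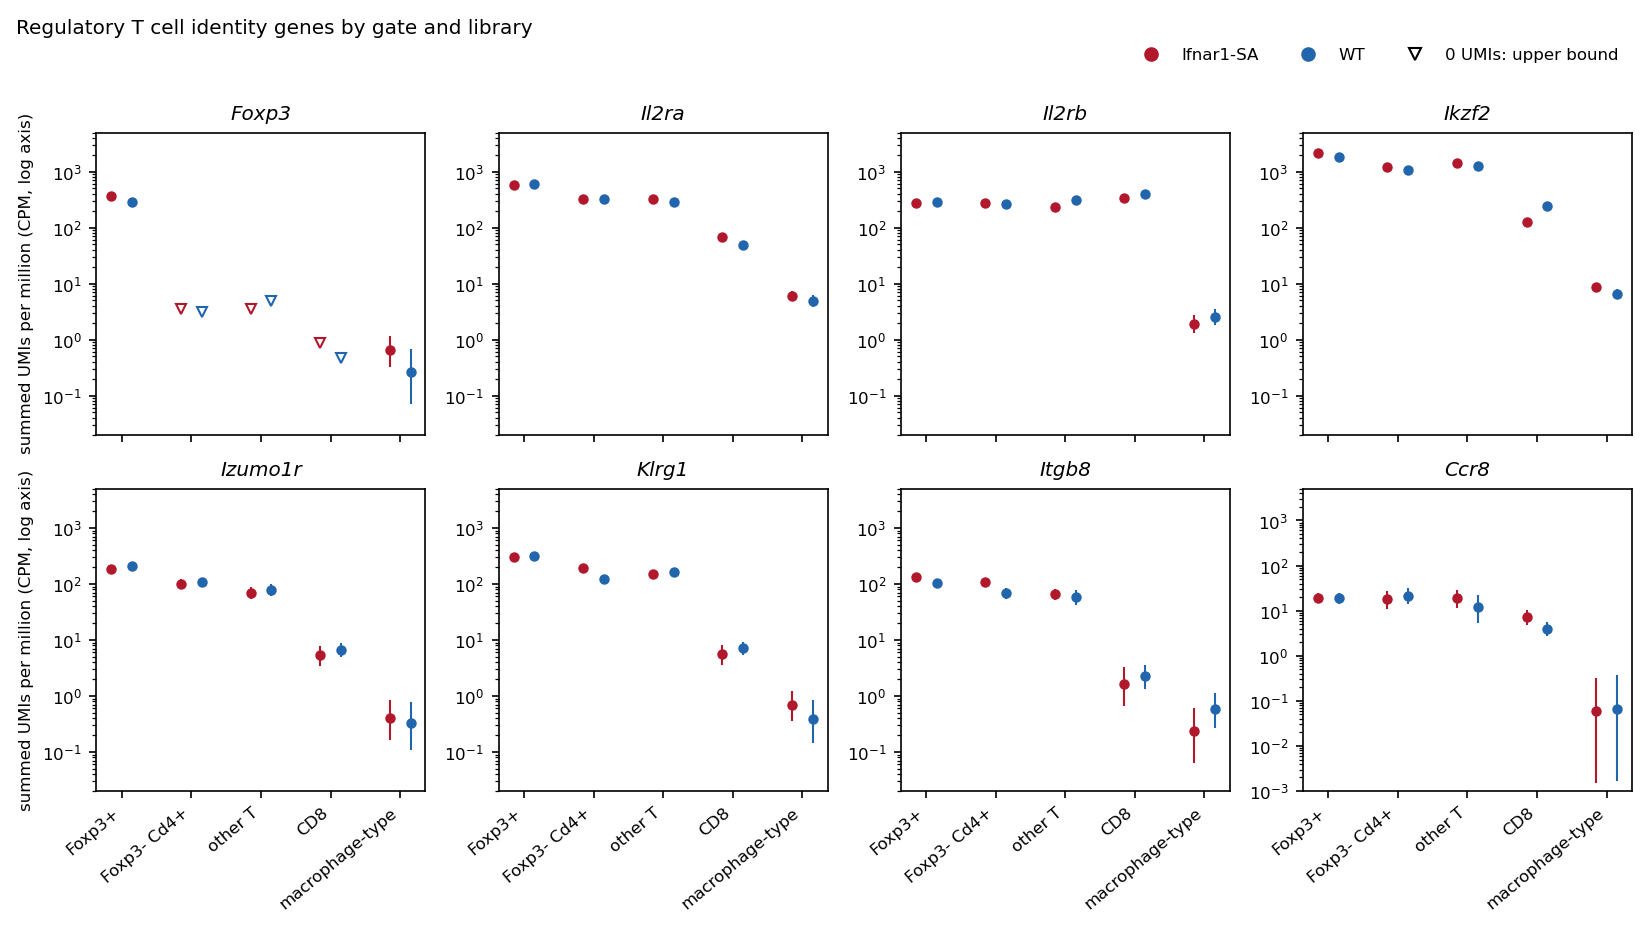
Level of each of the 8 genes in 5 gates of each library, in CPM on a log axis (the Ccr8 axis reaches lower than the others). Points are levels, lines exact 95% Poisson intervals, and open triangles upper bounds where a gate held 0 UMIs, which for Foxp3 the gates require. Il2rb is higher in CD8 cells than in the Foxp3-positive gate, while Izumo1r, Klrg1 and Itgb8 drop to under 10 CPM in CD8 cells.

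Across the members other than Foxp3, 4 of 7 in Ifnar1-SA and 5 of 7 in WT were higher by more than 1.5-fold in Foxp3-positive than in Foxp3-negative Cd4-positive cells. Of all genes tested, meaning those with a mean of at least 20 CPM and 30 UMIs, 7.66% in Ifnar1-SA and 11.4% in WT passed that fold upward, and 7.02% and 7.71% downward. The median log2 ratio of the 7 was 0.65 in Ifnar1-SA and 0.78 in WT, against 0.04 and 0.08 over all genes tested. Against CD8 cells Ikzf2, Il2ra, Izumo1r, Klrg1, Itgb8 and Ccr8 were past it in both libraries, 6 of 7, and Il2rb was not; of all genes tested 17.0% in Ifnar1-SA and 16.8% in WT were. Izumo1r, Klrg1 and Itgb8 reached the 20 CPM mean through the Foxp3-positive gate where they were high, and Ccr8 did not reach it in either library. Nothing is therefore read from that count, nor from the median of the 7 against CD8 cells under either scaling. The median of the 7 was then 4.05 in Ifnar1-SA and 3.64 in WT, against 0.13 and 0.16 over all genes. Of the genes past the fold against CD8 cells, 71.0% were higher in Ifnar1-SA and 72.1% in WT. With median-of-ratios scaling these shares were 51.5% and 53.1%, the median over all genes was -0.03 and -0.01, and the median of the 7 members was 3.89 and 3.48. Among the comparisons between gates and genotypes Ccr8 reached the minimum of 20 CPM in 1, Foxp3-positive over Foxp3-negative Cd4-positive cells of WT.

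Ikzf2 divided the Foxp3-negative Cd4-positive cells. An Ikzf2 UMI was present in 129 of 231 of these cells in Ifnar1-SA and in 130 of 220 in WT. The cells with Ikzf2 carried more Il2ra, Izumo1r, Klrg1 and Itgb8 than the cells without it. Il2ra was at 469.6 CPM with Ikzf2 and 92.1 CPM without it in Ifnar1-SA, and at 486 and 53.7 CPM in WT. Klrg1 was at 306 against 16.5 CPM in Ifnar1-SA and 197 against 6.71 CPM in WT, and Itgb8 at 178 against 4.72 CPM and 107 against 6.71 CPM. Izumo1r was at 151 against 23.6 CPM in Ifnar1-SA and 159.7 against 22.4 CPM in WT. Il2rb and Ccr8 were less divided, with Il2rb at 315 against 227 CPM in Ifnar1-SA and 283 against 237 CPM in WT. Genes of other roles divided the same cells. Ctla4 was at 1234 against 279 CPM in Ifnar1-SA and 1115 against 319.8 CPM in WT, and Gzmb, the gene of granzyme B, at 2169 against 92.1 CPM and 882 against 127 CPM. Cd40lg, the CD40 ligand gene, was at 34.3 against 89.8 CPM in Ifnar1-SA and 29.2 against 101 CPM in WT, lower with Ikzf2, and so was Tcf7, a factor of naive and memory T cells, at 28.1 against 80.3 CPM and 11.1 against 73.8 CPM. Effector genes Ccl1, Ifng and Csf2 had lower CPM with Ikzf2 in both libraries. Ccl1 was at 154 against 1337 CPM in Ifnar1-SA and 1022 against 2569 CPM in WT. Ifng was at 65.5 against 144 CPM and 40.3 against 288 CPM, and Csf2 at 62.4 against 92.1 CPM and 55.6 against 105 CPM. Few cells carried Csf2, 3.10% with and 5.88% without Ikzf2 in Ifnar1-SA and 5.38% and 6.67% in WT. Its CPM intervals overlapped in Ifnar1-SA (44.6 to 85.0 and 65.5 to 126 CPM). A Ccl1 UMI was in 6.98% against 19.6% of cells in Ifnar1-SA. In WT it was in 16.9% (10.9 to 24.5%) against 24.4% (16.0 to 34.6%), with overlapping intervals. Tnfsf8 was at 62.4 against 328 CPM in Ifnar1-SA but 244 against 172 CPM in WT. Gzmc was at 190.3 against 940.1 CPM but 750.1 against 716 CPM. The share of cells with Gzmc was lower with Ikzf2 in both, 9.30% against 14.7% and 10% against 20%. The 5 highest cells of the whole gate held 63.8% and 71.3% of its Gzmc UMIs. For such genes the Foxp3-positive gate differed from the cells with Ikzf2. Ccl1 was at 0.316 CPM in the Foxp3-positive gate against 154 CPM in the cells with Ikzf2 in Ifnar1-SA, and at 2.85 against 1022 CPM in WT.

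Set against the cells with Ikzf2, the Foxp3-positive gate had log2 ratios of 0.29 in Ifnar1-SA and 0.32 in WT for Il2ra, 0.30 and 0.37 for Izumo1r, -0.03 and 0.69 for Klrg1 and -0.41 and -0.01 for Itgb8. Of these, Klrg1 in WT was past 1.5-fold. Set against the cells without Ikzf2, the ratios were 2.64 in Ifnar1-SA and 3.50 in WT for Il2ra, 2.98 and 3.20 for Izumo1r, 4.18 and 5.57 for Klrg1 and 4.83 and 3.99 for Itgb8. Klrg1 had 7 and 3 UMIs in the cells without Ikzf2, with intervals of 3.13 to 5.50 and 4.01 to 7.85, and Itgb8 had 2 and 3 UMIs, with intervals of 2.97 to 7.88 and 2.42 to 6.27. For Il2rb they were 0.29 and 0.26, and for Ccr8 0.22 and 0.49. The split was made after its values were seen. Median depth was 4113 UMIs with and 3703.5 UMIs without Ikzf2 in Ifnar1-SA, and 4655 and 4215 UMIs in WT. The share of these cells with an Ikzf2 UMI was 56.3% in Ifnar1-SA and 54.3% in WT at 1000 to 2500 UMIs, and 58.1% and 62.3% at 5000 to 10000 UMIs. How many of the cells with Ikzf2 held Foxp3 transcripts that were not captured was not tested.

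**Figure D3:**
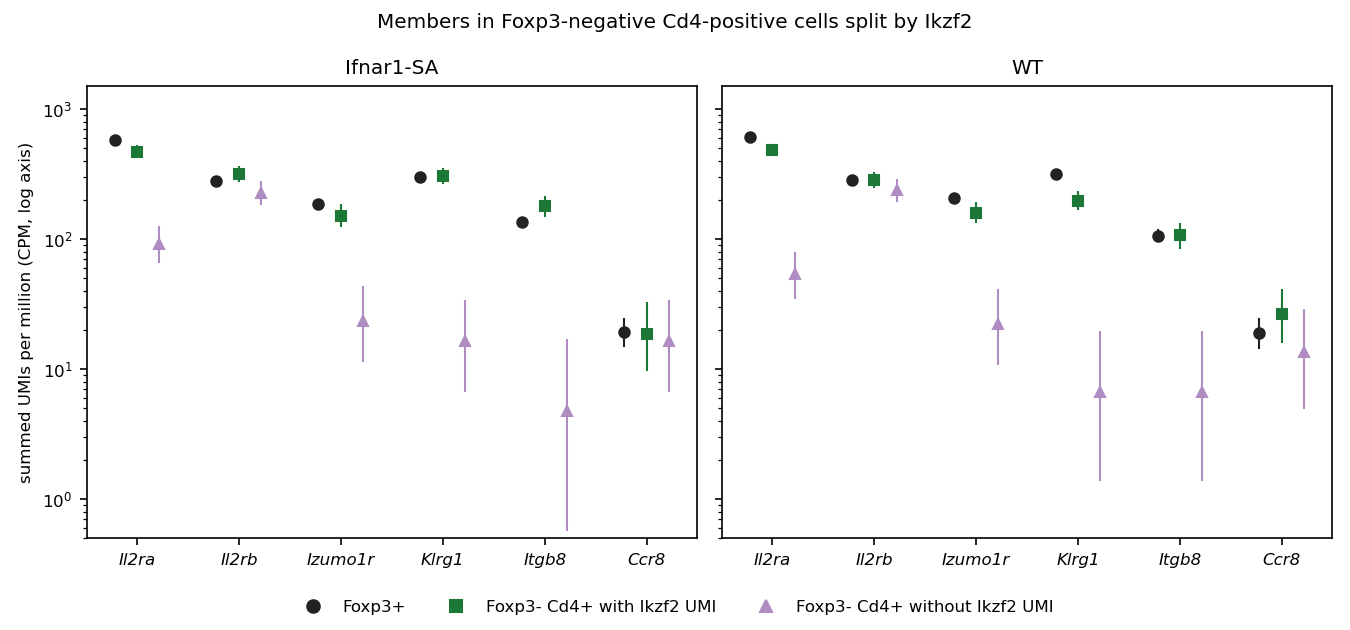
Levels of 6 members in Foxp3-positive cells and in Foxp3-negative Cd4-positive cells with and without an Ikzf2 UMI, in CPM on a log axis, for each library. Points are levels and lines exact 95% Poisson intervals. For Il2ra, Izumo1r, Klrg1 and Itgb8 the cells without Ikzf2 lie below 100 CPM and those with it above; in WT Klrg1 is at 318 CPM in Foxp3-positive cells and 197 CPM in the cells with Ikzf2.

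Between the genotypes, Foxp3, Itgb8 and Ikzf2 were higher in the Foxp3-positive cells of Ifnar1-SA by less than 1.5-fold, and the intervals of the other members spanned 0. Of the 8 members 0 were past 1.5-fold, where 6.18% of all genes tested were, 3.03% higher and 3.15% lower in Ifnar1-SA, so that the count is near the background. Ccr8 was below the minimum for testing. Their median log2 ratio of Ifnar1-SA over WT was 0.00. The ratio was 0.36 for Foxp3 (0.23 to 0.49), among cells that each had at least 1 UMI of it. For Ikzf2 it was 0.23 (0.18 to 0.29) and for Itgb8 0.34 (0.12 to 0.55). Il2ra had -0.08 (-0.17 to 0.02), Il2rb -0.03 (-0.17 to 0.11), Izumo1r -0.14 (-0.31 to 0.03), Klrg1 -0.09 (-0.22 to 0.05) and Ccr8 0.03 (-0.52 to 0.59). Cycling cells, those with a UMI of Mki67 or Top2a, were 32.7% of Foxp3-positive cells in Ifnar1-SA and 46.2% in WT. Without cycling cells the ratio was 0.15 for Foxp3, 0.03 for Ikzf2 and -0.01 for Itgb8. With the 22 Y-linked Ifnar1-SA cells alone over the WT cells, the ratio was 0.25 for Foxp3 and 0.21 for Ikzf2, but -1.12 for Izumo1r, -0.99 for Klrg1 and 0.79 for Itgb8.

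Ikzf2 was lower in the CD8 cells of Ifnar1-SA than in those of WT. It was at 128 CPM (553 UMIs) in Ifnar1-SA CD8 cells and 246 CPM (1935 UMIs) in WT CD8 cells, a log2 ratio of -0.95 (-1.09 to -0.81). Of all genes tested in this gate 2.59% were lower by more than 1.5-fold and 2.31% higher. An Ikzf2 UMI was present in 24.7% of Ifnar1-SA and 51.1% of WT CD8 cells, and at equal depth in 14.1% (11.4 to 17.1%) and 30% (27.0 to 33.1%). The matching share was 1.25% and 1.27% in macrophage-type droplets, which were chosen to lack T cell UMIs and so can understate free RNA. Cycling CD8 cells had 151 CPM in Ifnar1-SA and 272 CPM in WT, and the others 111 and 206 CPM. Ifnar1-SA cells with Y-linked transcripts had 139.6 CPM and those with Xist only 132 CPM, against 248 CPM in WT cells with Xist only. Cells with a UMI of Xcl1, a chemokine gene of activated CD8 cells, had 138 and 231 CPM and those without it 116 and 256 CPM. Over 16 settings, the log2 ratio ran from -1.11 to -0.82. The other members went different ways with Ikzf2 in CD8 cells of at least 2000 UMIs. Il2ra was at 70.8 CPM with Ikzf2 and 66.3 CPM without it in Ifnar1-SA and at 43.4 and 56.1 CPM in WT, and Klrg1 was below 10 CPM in all 4 groups. Il2rb was at 316 against 329 CPM in Ifnar1-SA and 425 against 326 CPM in WT. Itgb8 was higher with Ikzf2 at low levels, 5.01 CPM against 0 UMIs in Ifnar1-SA and 3.64 against 0.328 CPM in WT, with a log2 ratio of 3.47 (0.80 to 8.86) in WT.

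The other members of CD8 cells gave smaller or less certain differences. Il2ra had a log2 ratio of Ifnar1-SA over WT of 0.48 (0.26 to 0.70) and Il2rb of -0.24 (-0.33 to -0.15). The direction for Il2rb depended on the kind of Ifnar1-SA cell. Il2rb was at 293 CPM in Xist-only and 475 CPM in Y-linked Ifnar1-SA cells, against 394 CPM in Xist-only WT cells. Over 16 settings its ratio ran from -0.43 to 0.28, and that of Il2ra from 0.31 to 0.97. Ccr8 had 0.86 (0.09 to 1.63), from 31 UMIs in each library. Izumo1r, Klrg1 and Itgb8 had intervals that spanned 0. In Foxp3-negative Cd4-positive cells 2 of 7 members passed 1.5-fold, both higher in Ifnar1-SA, where 6.49% of all genes tested were: Klrg1 at 0.62 (0.30 to 0.94) and Itgb8 at 0.67 (0.25 to 1.10). Without cycling cells Klrg1 was at 0.13 and Itgb8 at 0.54. Ikzf2 was at 0.23 in these cells (0.12 to 0.34).

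**Figure D4:**
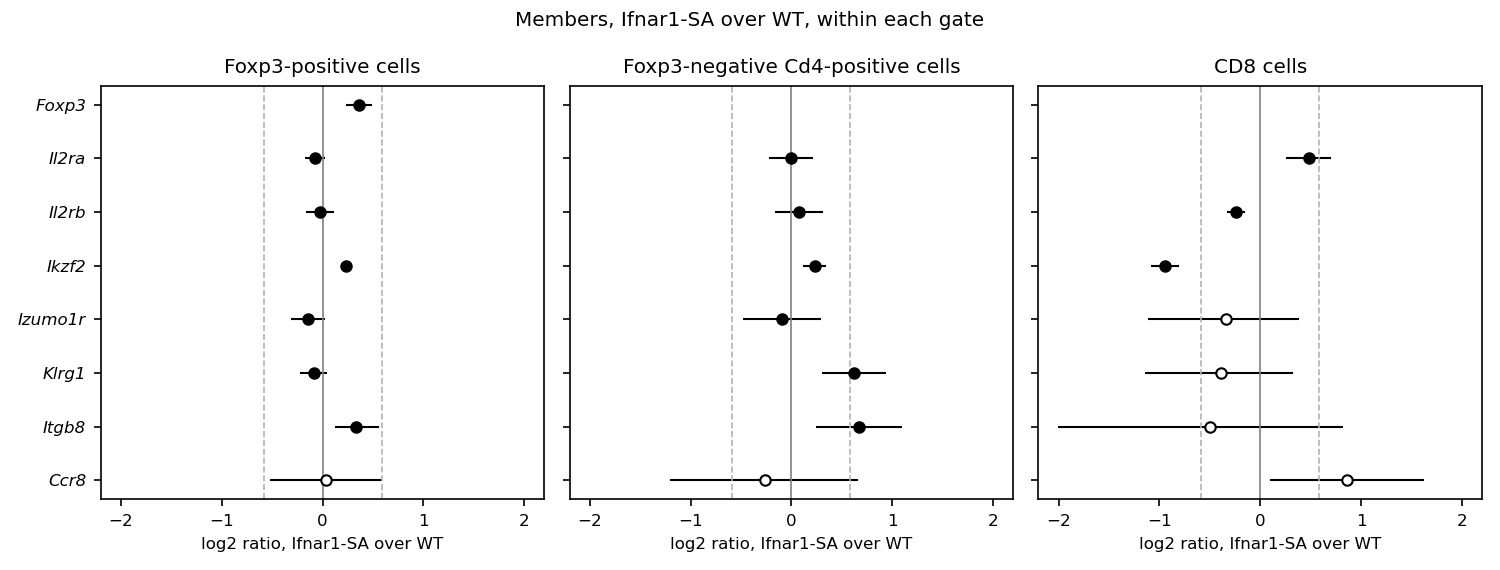
Log2 ratio of Ifnar1-SA over WT for each member within 3 gates. Points are ratios of CPM, open where the gene fell under the minimum for testing, lines are exact 95% counting intervals, and dashed lines mark 1.5-fold either way. In CD8 cells Ikzf2 lies at -0.95, past the dashed line, while no member passes it in Foxp3-positive cells.

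Foxp3-positive cells carried several of the members each. With each cell thinned to 2000 UMIs, which left out 37 Ifnar1-SA and 21 WT Foxp3-positive cells, 25 and 28 Foxp3-negative Cd4-positive cells and 63 and 83 CD8 cells, the median Foxp3-positive cell of both libraries had a UMI of 3 of the 7 other members. The median was 1 in Foxp3-negative Cd4-positive cells and in CD8 cells. No member was found in 1.59% of Foxp3-positive cells in Ifnar1-SA and 1.57% in WT, in 27.7% and 25% of Foxp3-negative Cd4-positive cells, and in 43.6% and 32.4% of CD8 cells. At that depth Ikzf2 was in 94.5% of Ifnar1-SA and 90.9% of WT Foxp3-positive cells, Il2ra in 60.9% and 62.7%, Il2rb in 42.3% and 49.8% and Klrg1 in 40% and 41.1%. Izumo1r was in 31.1% and 35.4%, Itgb8 in 26.1% and 22.3% and Ccr8 in 3.64% and 6.58%.

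**Figure D5:**
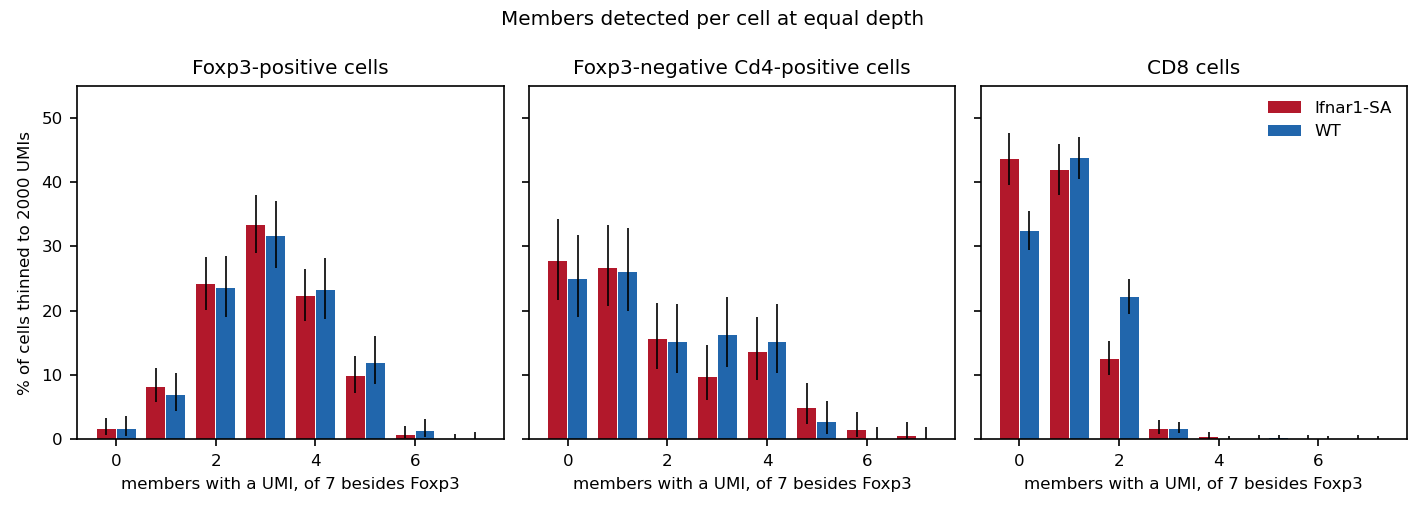
Number of the 7 members other than Foxp3 with at least 1 UMI in a cell thinned to 2000 UMIs, as the percentage of cells of each gate. Bars are shares and lines exact 95% binomial intervals. Foxp3-positive cells peak at 3 members in both libraries, and the other gates at 0 or 1.

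Within the Foxp3-positive gate, cells with Itgb8 carried more Ccr8 and Il10 than cells without it. CPM in these splits are from cells of at least 2000 UMIs. Ccr8 was at 26.3 CPM in cells with an Itgb8 UMI and 13.3 CPM in those without one in Ifnar1-SA, with a ratio on the log2 scale of 0.98 (0.19 to 1.80), and at 32.1 and 8.83 CPM in WT, a ratio of 1.86 (0.94 to 2.86). Over Foxp3-positive cells of any depth, 27 of 50 in Ifnar1-SA and 31 of 44 in WT of those with a Ccr8 UMI had an Itgb8 UMI, against 43.2% and 43.8% of all Foxp3-positive cells. These shares were not taken at equal depth. Among cells of at least 2000 UMIs, median depth was 6473 UMIs with and 5319 UMIs without Ccr8 in Ifnar1-SA. In WT it was 6317 and 5644.5 UMIs. The part of depth in these shares was not tested. Split by Ccr8 instead, Itgb8 was higher by 0.24 (-0.17 to 0.64) in Ifnar1-SA and by 1.02 (0.63 to 1.40) in WT on the log2 scale, so that the Ifnar1-SA interval spanned 0. Il10, the gene of an anti-inflammatory cytokine, was at 89.6 against 53.1 CPM in Ifnar1-SA and 54.8 against 19.6 CPM in WT in the split by Itgb8. In that split Il2ra was 0.35 and 0.41 higher on the log2 scale, and Ikzf2 0.42 and 0.32. Median depth was 5351 UMIs with and 5606 UMIs without Itgb8 in Ifnar1-SA and 5644.5 and 5840.0 UMIs in WT. Klrg1 did not go one way with the rest: Itgb8 in cells with Klrg1 was -0.07 (-0.36 to 0.22) in Ifnar1-SA and -1.11 (-1.45 to -0.76) in WT, and Ikzf2 was 0.19 and -0.40.

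Cycling Foxp3-positive cells had lower CPM of Foxp3, Ikzf2, Il2ra, Il2rb, Izumo1r, Klrg1 and Itgb8 than the cells that were not cycling, in both libraries. The gate gave every cell at least 1 Foxp3 UMI, whatever its depth. The log2 ratios of cycling over other cells were -0.78 in Ifnar1-SA and -0.95 in WT for Foxp3, -0.54 and -0.73 for Ikzf2 and -0.51 and -0.57 for Il2ra. They were -0.90 and -1.39 for Itgb8 and -0.86 and -0.35 for Klrg1. Ctla4 was at -0.00 in Ifnar1-SA and -0.33 in WT. Shares at equal depth depended on the random thinning and were drawn 2 times. An Itgb8 UMI was in 23.0% of cycling and 27.8% of other cells of Ifnar1-SA in 1 draw and in 23.7% and 26.4% in the other, and in WT in 14.9% and 29.1% and in 20.1% and 27.9%. Without thinning it was in 40.4% and 44.5% in Ifnar1-SA and in 40.8% and 46.4% in WT. Il2ra, Il2rb, Izumo1r and Klrg1, without thinning, were in a larger share of cycling than of other cells in both libraries. In WT this was 93.6% against 81.4% for Il2ra and 65.0% against 57.9% for Klrg1. At equal depth, in the latter draw, Il2ra was in 57.2% against 64.6% in Ifnar1-SA and 65.6% against 65.5% in WT. The lower CPM was thus not matched by a lower share for every member. For Ccr8 the log2 ratios were -0.93 and -1.77, but in Ifnar1-SA its share was 4.61% against 3.13% in 1 draw and 1.97% against 4.17% in the other, so no order is read from it there.

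Genes around the members were read from lists chosen with earlier results of these data known. Of all genes tested, 54.7% in Ifnar1-SA and 57.5% in WT were higher by any amount in Foxp3-positive than in Foxp3-negative Cd4-positive cells. Of the 20 measured genes of effector and suppressive function, 14 were higher and 6 lower in Foxp3-positive than in Foxp3-negative Cd4-positive cells of Ifnar1-SA, with 6 and 1 past 1.5-fold and a median of 0.33. In WT 15 were higher and 5 lower, with 7 and 2 past the fold and a median of 0.26. Tnfrsf9 (4-1BB) was at 885 against 546 CPM in Ifnar1-SA and 928 against 477 CPM in WT. Entpd1 (CD39), which breaks down extracellular ATP, was at 94.9 against 62.0 CPM and 80.2 against 42.8 CPM. Nrp1, a receptor often used to mark thymus-derived regulatory T cells, was lower, at 12.7 against 65.8 CPM in Ifnar1-SA and 9.63 against 56.6 CPM in WT. The interleukin-2 pathway list leaned lower, 3 of 12 higher and 9 lower in each library, with medians of -0.34 in Ifnar1-SA and -0.30 in WT. Its common chain Il2rg was at 252 against 331 CPM in Ifnar1-SA and 225 against 320.5 CPM in WT, and Bcl2, a survival gene, at 5.38 against 113 CPM and 5.35 against 50.6 CPM. Socs2, a feedback inhibitor of cytokine signalling, was at 89.8 against 71.4 CPM in Ifnar1-SA and 74.9 against 29.1 CPM in WT.

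Transcription factors went both ways, 6 of 16 measured higher in Ifnar1-SA and 6 of 14 in WT. Ikzf4 (Eos), a partner of Foxp3, was at 62.6 against 26.3 CPM in Ifnar1-SA and 57.4 against 27.4 CPM in WT. Prdm1 (Blimp-1), a factor of effector cells, was at 73.7 against 45.1 CPM and 78.8 against 39.4 CPM. Bhlhe40 was lower, at 178 against 457 CPM in Ifnar1-SA and 171 against 498 CPM in WT. Among chemokine receptor and egress genes 2 of 8 were higher in Ifnar1-SA and 4 of 8 in WT. Cxcr6 was lower, at 63.6 against 342 CPM in Ifnar1-SA and 35.7 against 352 CPM in WT. Of the TGF-beta genes, 4 of 7 were higher in each library, with medians of 0.26 in Ifnar1-SA and 0.05 in WT. The conventional CD4 list was lower in 8 of 9 measured genes in Ifnar1-SA and 5 of 7 in WT. Proliferation genes were higher in 8 of 8 in both libraries, with medians of 0.69 in Ifnar1-SA and 1.81 in WT, where cycling cells were 32.7% and 46.2% of Foxp3-positive cells and 22.5% and 20.9% of Foxp3-negative Cd4-positive cells. Interferon genes were lower in 13 of 20 in Ifnar1-SA and 13 of 19 in WT, and dissociation stress genes in 7 of 7 and 4 of 7, with medians of -0.26 and -0.01.

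Between the genotypes, the list furthest from 0 in the Foxp3-positive gate was that of type I interferon genes. Type I interferon genes were higher in Ifnar1-SA in 20 of 20, where 47.8% of all genes tested were higher by any amount, with 16 past 1.5-fold and a median of 0.996 against -0.02 over all genes. The other gates showed this too. In Foxp3-negative Cd4-positive cells 19 of 19 were higher and 12 past the fold, where 6.49% of all genes tested passed it upward. The median was 0.82 against 0.02 over all genes. In CD8 cells 16 of 17 were higher and 3 past the fold, where 2.31% of all genes tested passed it upward. The median was 0.36 against 0.01. For these 2 gates the share of all genes higher by any amount is not given, so those counts have no background here. Of the 19 measured effector and suppressive genes, 15 were higher and 3 passed the fold, all upward: Lag3 at 140.4 CPM in Ifnar1-SA and 58.5 CPM in WT, Gzmb at 2199 and 1253 CPM, and Il10 at 69.3 and 35.3 CPM. Il7r, the interleukin-7 receptor gene, was at 475 CPM in Ifnar1-SA and 279.5 CPM in WT. Transcription factors had 11 of 15 higher and 0 past the fold, the TGF-beta genes 5 of 7 and 0, and chemokine receptors 3 of 7 and 1, Cxcr6. Proliferation genes were lower in 8 of 8 in the Foxp3-positive gate, with a median of -0.50, and stress genes in 5 of 7, with -0.43. In CD8 cells proliferation genes were also lower in 8 of 8, with a median of -0.60, while in Foxp3-negative Cd4-positive cells 6 of 8 were higher.

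Beyond the lists, 12 genes were named for the highest and 8 for the lowest ratios of Foxp3-positive over Foxp3-negative Cd4-positive cells that both libraries shared. Among the 12 were Ikzf4, the transcription factor gene Myb at 1.13 in Ifnar1-SA and 1.42 in WT, and the cell cycle genes Cenpf, Ccna2, Cdca3 and Rrm1. The 12 also held Bnip3, a hypoxia-responsive mitochondrial gene, at 1.43 and 1.46, Phgdh, of serine synthesis, at 1.19 and 1.48, and Slc16a3, a lactate transporter, at 1.34 and 1.10. Rapsn, known for clustering acetylcholine receptors at the nerve-muscle synapse, was at 93.9 against 42.3 CPM in Ifnar1-SA and 104 against 48.8 CPM in WT, with 8.32 and 6.24 CPM in CD8 cells. Hist1h4i and Tuba1c, of chromatin and the cytoskeleton, completed them. The 8 lowest were Ccl1, Nrgn, Csf2, Gzmc, Tnfsf11, Tnfsf8, Ifng and Klrd1, among them genes of secreted and surface effector molecules. Csf2, the gene of GM-CSF, was at 2.21 against 74.2 CPM in Ifnar1-SA and 0.357 against 74.5 CPM in WT, where the gate held 1 UMI and the log2 ratio of -7.71 had an interval of -13.03 to -5.19. Ifng, the interferon gamma gene, was at 7.91 against 96.8 CPM and 7.13 against 135 CPM. Tnfsf11 (RANKL) was at 7.27 against 166 CPM and 8.91 against 216 CPM.

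Over the 10 points that 5 gates of 2 libraries give, macrophage-type droplets among them, each member had genes of like pattern, by Pearson correlation of log2(CPM + 10). Among the 3 closest to each were Ifngr1 and Itgav for Ikzf2 at 0.9969 and 0.9938, Tap2 and Itgb7 for Itgb8 at 0.9951 and 0.99, Fam110a for Klrg1 at 0.9948, Mif4gd for Izumo1r at 0.9904 and Trp53i11 for Il2ra at 0.9962. Cxcr3 lay closest to Ccr8 at 0.9955 and Cnn2 to Il2rb at 0.9977. For Foxp3, which the gates set to 0 outside its own, the closest was Pkm at 0.9095. The points share libraries and depth, and the members were near 0 in the macrophage-type droplets.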

How the data were processed

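The samples were 2 droplet libraries, 1 of Ifnar1-SA and 1 of WT. The deposited tables hold raw UMI counts for each gene in each barcode; the authors used Cell Ranger version 4, per the file headers, and mm10, per the submitters' processing notes. No other upstream setting is stated in the labels or headers. Total depth was 62732220 UMIs in Ifnar1-SA and 55497066 in WT, and cells that passed the filters had medians of 7176 and 8016.5 UMIs.

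Cells were gated by UMIs of named genes as given above, with no clustering. UMIs were summed per gate and library and scaled to CPM. Log2 ratios have exact conditional binomial intervals at 95%, levels exact Poisson and shares exact Clopper-Pearson intervals, which cover counting error only. A single library per genotype allows no test. Genes with at least 30 UMIs and a mean of 20 CPM were counted by whether they passed a 1.5-fold difference, and "tested" means no more than that. Shares were also computed after thinning cells to 2000 UMIs, leaving out shallower cells. The ratio and interval code was tested on simulated data. Doublets were scored with Scrublet in scanpy, whose automatic threshold marked 2 Ifnar1-SA and 0 WT cells and so did not work. No cell was removed in the values above, and the 200 Ifnar1-SA and 132 WT cells with the highest scores were left out in 1 alternative.

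Members are always named. Other genes are named from the lists, from the 12 highest and 8 lowest ratios of Foxp3-positive over Foxp3-negative Cd4-positive cells by the smaller of both libraries' ratios (at least 50 CPM), and from the 3 genes most like each member. The members and lists were chosen with earlier results of these data known. Python 3.11.15, numpy 2.4.6, scipy 1.17.1, pandas 2.3.3, scanpy 1.11.5 and matplotlib 3.10.9 were used.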

Additional observations from a re-analysis of the deposited data

Results flagged for a closer look

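Ikzf2 differed between the genotypes in opposite directions in 2 gates, with a log2 ratio of Ifnar1-SA over WT of 0.23 in Foxp3-positive cells and -0.95 in CD8 cells. With 1 library per genotype this difference was not tested.

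Ikzf2 and Il2ra were also found in T gate cells that the comparisons did not use. The other T gate cells, which had neither Foxp3, Cd4 nor 2 CD8 UMIs, held 1453 CPM of Ikzf2 in Ifnar1-SA and 1277 CPM in WT, and 329.7 and 282 CPM of Il2ra. Macrophage-type droplets held 8.79 and 6.53 CPM of Ikzf2 and 5.98 and 4.88 CPM of Il2ra. The cells with both Foxp3 and CD8 UMIs, 25 in Ifnar1-SA and 23 in WT, held 1031 and 1271 CPM of Ikzf2 and 547 and 335 CPM of Il2ra. Their median depth was 12462 UMIs in Ifnar1-SA and 11189 UMIs in WT, above that of any other T gate population. Among the cells with the highest Scrublet scores were 1 of these 25 in Ifnar1-SA and 5 of these 23 in WT. The Foxp3-positive gate had 3 of 477 and 2 of 340 cells among them, and the CD8 gate 8 of 673 and 3 of 993. Beyond these scores, whether these are doublets was not tested.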

How the results depend on the processing

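No paired analysis was possible because each genotype had 1 library. Of the alternatives, those with Ikzf2-negative cells, with at least 5000 UMIs and with Y-linked cells were chosen after seeing the data. The Foxp3-positive share, 9.04 points higher in Ifnar1-SA, was 4.67 points where a Cd4 UMI was needed, 13.9 with Xist-only cells and 13.7 with cells of at least 5000 UMIs, and reversed to -7.94 for Y-linked Ifnar1-SA cells against WT. The members' median over Foxp3-negative Cd4-positive cells in Ifnar1-SA (0.65) was 1.11 without cycling cells, 0.94 without the 5 highest cells and 2.81 over cells without Ikzf2. In WT (0.78) it was 0.66 at 5% mitochondrial UMIs, 0.63 with 2 Foxp3 UMIs, 0.65 with a Cd4 UMI, 1.13 thinned, 1.08 as a mean per cell, 1.27 without cycling cells, 0.998 without the 5 highest cells and 3.35 over cells without Ikzf2. Over CD8 cells in Ifnar1-SA (4.05) it was 4.25 with myeloid UMIs under 3, 4.32 thinned, 4.22 without the highest Scrublet scores, 4.41 per cell, 3.89 by median-of-ratios, 4.53 without cycling cells and 4.31 without the 5 highest cells, and in WT (3.64) it was 3.88 thinned, 3.97 per cell, 3.48 by median-of-ratios and 4.25 without cycling cells. Genes past 1.5-fold depended on the minimum: with 50 CPM and with no minimum they numbered 324 and 1732 against 761 in the Cd4 comparison of Ifnar1-SA, 423 and 2069 against 999 in WT, 642 and 2767 against 1232 in the CD8 comparison of Ifnar1-SA and 602 and 2980 against 1206 in WT. Between the genotypes they numbered 115 and 1171 against 324 in Foxp3-positive cells (799 thinned), 179 and 947 against 579 in Foxp3-negative Cd4-positive cells, and 112 and 1258 against 244 in CD8 cells (449 thinned). In the Cd4 comparison the share of these genes that was higher was 52.2% in Ifnar1-SA and 59.6% in WT, 45.7% and 52.5% by median-of-ratios and 61.1% and 69.2% thinned. The cause of these shifts was not tested. Values for single genes stayed within their counting interval in 551 of the cases and moved past it in 126.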
